A study of Mus musculus with 76 samples.

Results

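The genes described are 10 enzymes of glycolysis, *Hk2*, *Gpi1*, *Pfkl*, *Aldoa*, *Tpi1*, *Gapdh*, *Pgk1*, *Pgam1*, *Pkm* and *Ldha*, taken by symbol from tables of normalized counts of liver and visceral white adipose tissue (WAT). All 10 were present in both tables, among 18964 entries in WAT and 16775 in liver, and all 10 passed the filter of a mean of at least 10 normalized counts in each tissue. The mice were female C57BL/6 animals fed ad libitum, with either of 2 homozygous genotypes of *Fnip2*, whose protein binds folliculin in a complex that takes part in nutrient signalling to mTORC1. *Fnip2* T/T mice carry the T allele of a site in the 3′UTR of *Fnip2*, and *Fnip2* C/C mice are knock-in animals in which CRISPR editing put a C at that site. The C allele also carries a nearby G-to-C change made in the PAM of the guide, so the groups differ at both positions. WAT came from 4 C/C mice (numbers 590, 593, 599 and 638) and 5 T/T mice (607, 608, 609, 657 and 658). Liver came from 5 C/C mice (590, 591, 592, 638 and 639) and 5 T/T mice (607, 608, 657, 658 and 659), and 6 mice gave both tissues. The age of the mice and their litters are not given in the sources used here, and in both ranges of mouse numbers (under 610 and over 630) every C/C number is lower than every T/T number of the same tissue.

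Glycolysis turns glucose into pyruvate in the cytosol and yields ATP and NADH. Hexokinase traps glucose in the cell, phosphofructokinase commits it to the pathway, aldolase and triosephosphate isomerase make the triose that the later enzymes oxidise, and lactate dehydrogenase returns NADH to NAD+. Adipocytes also draw on the pathway for glycerol 3-phosphate, the backbone of stored triglyceride, and the liver runs most of its steps in either direction and relies on other isoenzymes at several of them, such as glucokinase, aldolase B and the liver form of pyruvate kinase.

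The libraries read the 3′ ends of poly(A) transcripts, so a value stands for reads near the end of a gene and not for its whole transcript. Between 4180209 and 6277644 reads per WAT library and between 5583041 and 7523200 per liver library had been assigned to genes. Normalized counts are these reads divided by 1 size factor per library. Genotypes were compared on the log2 scale with limma, which fits a linear model to every gene and shares the estimate of spread between genes, and a gene is called here where its p, adjusted over all genes tested, was under 0.05. *Fnip2* had 22.8 ± 6.99 (SD, n = 4) normalized counts in C/C WAT and 28.3 ± 10.5 (SD, n = 5) in T/T WAT (limma adjusted p = 0.580), and 155 ± 29.2 (SD, n = 5) in C/C liver and 104 ± 33.2 (SD, n = 5) in T/T liver (limma adjusted p = 1.00). Of 10 adipocyte markers, all 10 were present in WAT, and of 8 hepatocyte markers all 8 were present in liver. 2 WAT libraries stood apart by markers of another tissue. The summed ovary markers reached 22850 normalized counts in C/C mouse 593 and lay between 27.9 and 97.2 in the other WAT libraries. The summed skeletal muscle markers reached 3173 in T/T mouse 609 and lay between 47.7 and 274.68 elsewhere.

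Short stretches of the promoters are shown because several members share a sequence element in them. RefSeq promoter windows (GRCm38.p6, from 250 bases before to 50 after each annotated start) matched all 10 members. The letters ACGTG, a form of the core of the element bound by the hypoxia-inducible factors, were searched on both strands, where they also form part of every CACGTG. Other forms of that core were not searched. They were found in at least 1 window of 7 of the 10 members (*Hk2*, *Aldoa*, *Gapdh*, *Pgk1*, *Pgam1*, *Pkm* and *Ldha*), and in 21.8% of the 27025 genes with a window. The letters CACGTG, an E-box read by basic helix-loop-helix factors such as MYC and TFEB, were found in *Ldha* alone of the 10 members and in 8.09% of all genes. Capitals mark the match in the following stretches, each read 5′ to 3′ on the strand of its gene.
*Hk2*, chr6:82774491-82774516, minus strand: tgagcacatcCACGTcactgtccggg
*Pgk1*, chrX:106186940-106186965, plus strand: gtcgtgcaggACGTGacaaatggaag
*Pgam1*, chr19:41911747-41911772, plus strand: ctccttgcttACGTGcgctccgtgac
*Pkm*, chr9:59657142-59657167, plus strand: ccgatccggtCACGTccgcgccgcag
*Ldha*, chr7:46845746-46845771, plus strand: gcccagcctaCACGTGggttcccgca
*Hk2* and *Pgam1*, which differed in opposite directions in WAT, both hold the ACGTG letters. *Gpi1*, *Pfkl* and *Tpi1* have no match to the letters searched in their windows. A match is a description of the sequence, and no binding was measured.

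In WAT, the question was whether the genotype of *Fnip2* went with a different level of each enzyme. *Tpi1*, the triosephosphate isomerase, and *Hk2*, the insulin-responsive hexokinase of fat and muscle, were lower in C/C than in T/T mice, and *Pgam1*, the phosphoglycerate mutase, was higher. The other 7 members did not pass the test. Thus 3 of 10 members were called, at a limma adjusted p under 0.05, where 32.1% of the 12798 genes tested in WAT were called, so the share of members called was close to that of genes in general. By direction, 2 members were lower, against 17.0% of all genes, and 1 was higher, against 15.1%. The median log2 difference (C/C minus T/T) over the 10 members was -0.04, beside 0.02 over all genes tested. WAT is a mixture of cells, so fewer cells of a type and less RNA per cell cannot be told apart in these values.

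*Hk2* catalyses the entry step, the phosphorylation of glucose. Its normalized counts in WAT were 599, 274, 391 and 412 in C/C mice 590, 593, 599 and 638, and 661, 723, 461, 1010.5 and 999.6 in T/T mice 607, 608, 609, 657 and 658. The genotypes overlapped through the highest C/C library (590) and the lowest T/T library (609), which is the library with skeletal muscle transcripts. The means were 419 ± 134 (SD, n = 4) and 771 ± 235 (SD, n = 5), a log2 difference of -0.87 (SE 0.27, 95% confidence interval -1.45 to -0.30, limma adjusted p = 0.0254). An exact two-sided permutation test gave p = 0.0397 over 126 groupings. The call was lost when any of C/C mice 593, 599 and 638 or T/T mice 657 and 658 was left out, with limma adjusted p-values between 0.0516 and 0.0695, while the difference stayed between -1.06 and -0.69 over all 9 libraries left out in turn.

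*Gpi1* (glucose-6-phosphate isomerase), *Pfkl* (the liver-type subunit of phosphofructokinase) and *Aldoa* (aldolase A) carry out the next steps. *Gpi1* had 1224 ± 206 (SD, n = 4) normalized counts in C/C and 1148 ± 342 (SD, n = 5) in T/T WAT, with a 95% interval of the log2 difference from -0.36 to 0.62. *Pfkl* ranged from 387 to 798 in C/C and from 606 to 1407 in T/T libraries, and its log2 difference of -0.51 had a 95% interval from -1.08 to 0.05 (limma adjusted p = 0.150). *Aldoa* ranged from 4312 to 8148 in C/C and from 5844 to 11286 in T/T libraries, with a log2 difference of -0.33 and an interval from -0.90 to 0.24. All 3 overlapped between the genotypes, and the intervals leave room for differences in either direction. T/T mouse 658 had the highest value of all 9 WAT libraries for each of these 3 genes.

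*Tpi1* interconverts the triose phosphates, and stands where carbon can leave glycolysis as dihydroxyacetone phosphate for glycerol 3-phosphate. Its normalized counts in WAT were 152, 118, 139 and 153 in C/C mice 590, 593, 599 and 638, and 370.1, 272, 369.5, 279.6 and 418 in T/T mice 607, 608, 609, 657 and 658. Every C/C library lay below every T/T library. In no other member were the genotypes apart, and over all genes tested they did not overlap, in either direction, for 26.1%. The means were 140.45 ± 16.4 (SD, n = 4) and 342 ± 63.2 (SD, n = 5). The log2 difference was -1.26 (SE 0.18, 95% confidence interval -1.66 to -0.87, limma adjusted p = 0.000824), which corresponds to a 2.40-fold higher level in T/T. The exact two-sided permutation test gave p = 0.00794, the smallest that 126 groupings can give. The read counts behind these values were 126 to 131 in C/C and 280 to 551 in T/T libraries, and *Tpi1* ranked 144 by p among all genes tested in WAT.

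The 3′ end of *Tpi1* (GRCm38 chr6:124810586-124814296, minus strand) overlaps that of *Spsb2* on the opposite strand. The kit keeps the strand, but how the authors' counting used it is not given in the sources used here, so reads of the genes may not have been kept apart. *Spsb2*, an adaptor of a ubiquitin ligase, had 167 ± 38.5 (SD, n = 4) normalized counts in C/C and 94.9 ± 14.9 (SD, n = 5) in T/T WAT, a log2 difference of 0.79 (SE 0.20, limma adjusted p = 0.0110). *Tpi1* was thus lower and its overlapping neighbour higher in the same C/C libraries. The genotypes did not overlap in *Spsb2* either, with 125 to 206 in C/C and 79.3 to 119.66 in T/T libraries.

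*Gapdh*, *Pgk1* and *Pgam1* come next, the oxidation of the triose, the first ATP-yielding step and the mutase. *Gapdh* had only 5 to 31 reads in any WAT library, 13.0 ± 6.19 (SD, n = 4) normalized counts in C/C and 11.5 ± 7.69 (SD, n = 5) in T/T. These low values do not give the level of *Gapdh* mRNA: of the 251 stretches of 50 bases in the last 300 bases of its transcript, 82.9% also occur in transcripts of 98 other annotated genes, 96 of them pseudogenes, and reads from there cannot be placed on a single gene. No such stretch in the last 300 bases of *Hk2*, *Gpi1*, *Pfkl*, *Tpi1*, *Pgk1*, *Pgam1*, *Pkm* or *Ldha* was shared, and 2.39% of those of *Aldoa* were, with 1 pseudogene. Over the whole transcript, more was shared for some of them, such as 68.0% for *Pgk1* and 41.5% for *Pgam1*, against 7.51% for *Tpi1* and 0% for *Hk2*. Reads from outside the last 300 bases may therefore be affected. *Pgk1* had 31 to 68 reads per WAT library and 38.5 ± 5.24 (SD, n = 4) normalized counts in C/C against 44.5 ± 6.85 (SD, n = 5) in T/T, with a 95% interval of the log2 difference from -0.69 to 0.29.

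*Pgam1* moved the other way from *Tpi1* and *Hk2*. Its normalized counts in WAT were 169, 198, 238.5 and 184 in C/C mice 590, 593, 599 and 638, and 81.2, 147, 171, 87.3 and 127 in T/T mice 607, 608, 609, 657 and 658. The genotypes overlapped by 2 libraries only, T/T mouse 609 just above C/C mouse 590. The means were 198 ± 29.8 (SD, n = 4) and 123 ± 38.4 (SD, n = 5), a log2 difference of 0.73 (SE 0.24, 95% confidence interval 0.22 to 1.24, limma adjusted p = 0.0313). The exact two-sided permutation test gave p = 0.0317. The call was lost without any of C/C mice 593, 599 and 638 or T/T mice 607, 657 and 658, with limma adjusted p-values between 0.05004 and 0.0905, and the difference stayed between 0.60 and 0.86.

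*Pkm* (pyruvate kinase of the muscle type, which makes pyruvate) and *Ldha* (which reduces pyruvate to lactate) close the pathway. *Pkm* had 1732, 2248, 3490.2 and 3086 normalized counts in C/C mice 590, 593, 599 and 638 and 1220.2, 1935, 2420.2, 1253 and 3194 in T/T mice 607, 608, 609, 657 and 658. Its log2 difference of 0.44 had a 95% interval from -0.22 to 1.11, and the highest T/T library exceeded 3 of the 4 C/C libraries. *Ldha* had 4858 ± 1442 (SD, n = 4) in C/C and 4265 ± 951 (SD, n = 5) in T/T, with an interval from -0.36 to 0.70. Summed over the 10 members, the RPM (reads per 1000000 reads assigned to genes) was 3464 ± 702 (SD, n = 4) in C/C and 3859 ± 793 (SD, n = 5) in T/T WAT, and the ranges overlapped.

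**Figure D1:**
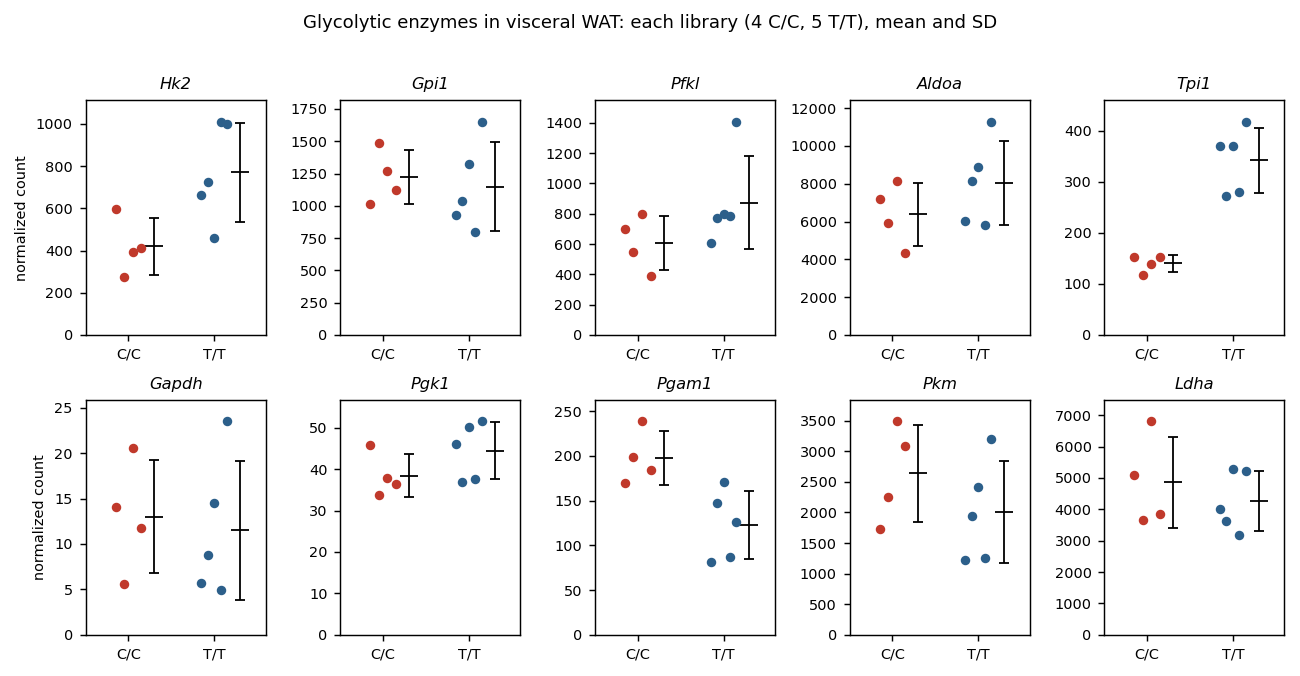
Normalized counts of the 10 glycolytic enzymes in visceral WAT, 1 panel per gene with a linear axis from 0, C/C in red and T/T in blue. Each point is a library, and the black marks give the mean and SD of 4 C/C and 5 T/T libraries. *Tpi1* lies between 118 and 153 in C/C and between 272 and 418 in T/T, and in the other panels the points of the genotypes overlap.

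Markers of cell types also differed with genotype in the same WAT libraries, where 17.0% of all genes tested were called lower and 15.1% higher. Of 10 adipocyte markers, 7 were called lower in C/C (*Adipoq*, *Plin1*, *Fabp4*, *Lep*, *Retn*, *Lipe* and *Pnpla2*), while their summed level ranged from 75947 to 236261 normalized counts in C/C and from 120003 to 208085 in T/T. Of 6 erythrocyte markers, 5 were tested and 4 were called lower, with sums of 3045 to 4305 in C/C and 10332 to 13811 in T/T. Of 8 hepatocyte markers, 5 were present in the WAT table (*Tat*, *Cps1* and *Hnf4a* were not), and 2 of the 3 tested were lower, with sums of 203 to 659 in C/C and 833 to 2891 in T/T. Of 5 markers of hepatic stellate cells, 3 were tested and 1 (*Des*) was lower, with sums of 786 to 1023 in C/C and 1307 to 1723 in T/T. The erythrocyte, hepatocyte and stellate sums were thus lower in every C/C library, and the lymphocyte sum was higher in every C/C library (206 to 323, against 125 to 199 in T/T), although of the 2 lymphocyte markers tested *Trbc2* was called lower. Of 10 macrophage markers 3 were lower and 1 higher, of 8 endothelial markers 2 were lower and 2 higher, of 8 fibroblast and preadipocyte markers 1 was lower and 2 higher, and of 6 smooth muscle markers 2 were lower and 1 higher, each with overlapping sums. Their part in the differences of *Tpi1*, *Hk2* and *Pgam1* was not tested. Without mice 593 and 609, whose libraries hold ovary and skeletal muscle transcripts, *Tpi1* (-1.15, limma adjusted p = 0.00293), *Hk2* (-0.86, adjusted p = 0.0156) and *Pgam1* (0.86, adjusted p = 0.0224) were called, and no other member was.

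Within the mice numbered under 610, 3 C/C and 3 T/T, the log2 difference was -1.30 for *Tpi1* (limma adjusted p = 0.0170), -0.59 for *Hk2* (adjusted p = 0.237) and 0.65 for *Pgam1* (adjusted p = 0.181). Only *Tpi1* was called there. The mice numbered over 630 are 1 C/C and 2 T/T and were not tested alone.

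In liver, the same comparison was made with 5 mice per genotype. No member was called, and none had an unadjusted limma p under 0.05. Of all 11710 genes tested in liver, 0% were called by limma, and 231 (1.97%) had an unadjusted p under 0.05. edgeR and DESeq2 on the recovered reads also called 0 genes, with 249 (2.13%) and 225 (1.92%) at an unadjusted p under 0.05. The median log2 difference of the members was -0.12, beside 0.01 over all genes tested, and 7 of the 10 were below 0.

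*Ldha* had the lowest p of the members in liver. Its normalized counts were 1551, 1358, 2145, 1608 and 1669 in C/C mice 590, 591, 592, 638 and 639, and 1879, 1873, 2595, 1650.4 and 2112 in T/T mice 607, 608, 657, 658 and 659. The genotypes overlapped, with C/C mouse 592 above 4 of the 5 T/T mice. The log2 difference was -0.28 (SE 0.14, 95% confidence interval -0.58 to 0.02, unadjusted limma p = 0.0693, adjusted p = 1.00). *Tpi1*, the member with the clearest difference in WAT, had 715, 776, 894, 1004 and 947 normalized counts in the C/C livers of mice 590, 591, 592, 638 and 639, and 792, 917, 759.6, 868 and 894 in the T/T livers of mice 607, 608, 657, 658 and 659. The groups overlapped throughout. Its log2 difference was 0.03, and the 95% interval from -0.23 to 0.28 lies apart from that in WAT.

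*Hk2* had few reads in liver, 14 to 49 per library, and normalized counts of 36.7 ± 7.01 (SD, n = 5) in C/C and 29.0 ± 11.3 (SD, n = 5) in T/T. Its log2 difference was 0.41 with an interval from -0.16 to 0.98. *Pgam1* had 57.9 ± 12.8 (SD, n = 5) in C/C and 65.2 ± 19.9 (SD, n = 5) in T/T, with an interval from -0.57 to 0.29. Both therefore lay on the other side of 0 in liver from where they lay in WAT, without passing the test. Of the rest, *Aldoa* and *Pfkl* had the narrowest intervals, from -0.35 to 0.13 and from -0.43 to 0.17. *Gpi1* (-0.45 to 0.38), *Pkm* (-0.51 to 0.24), *Pgk1* (-0.28 to 0.55) and *Gapdh* (-1.14 to 0.29) had wider ones. Every member overlapped between the genotypes in liver, where 0.248% of all genes did not.

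**Figure D2:**
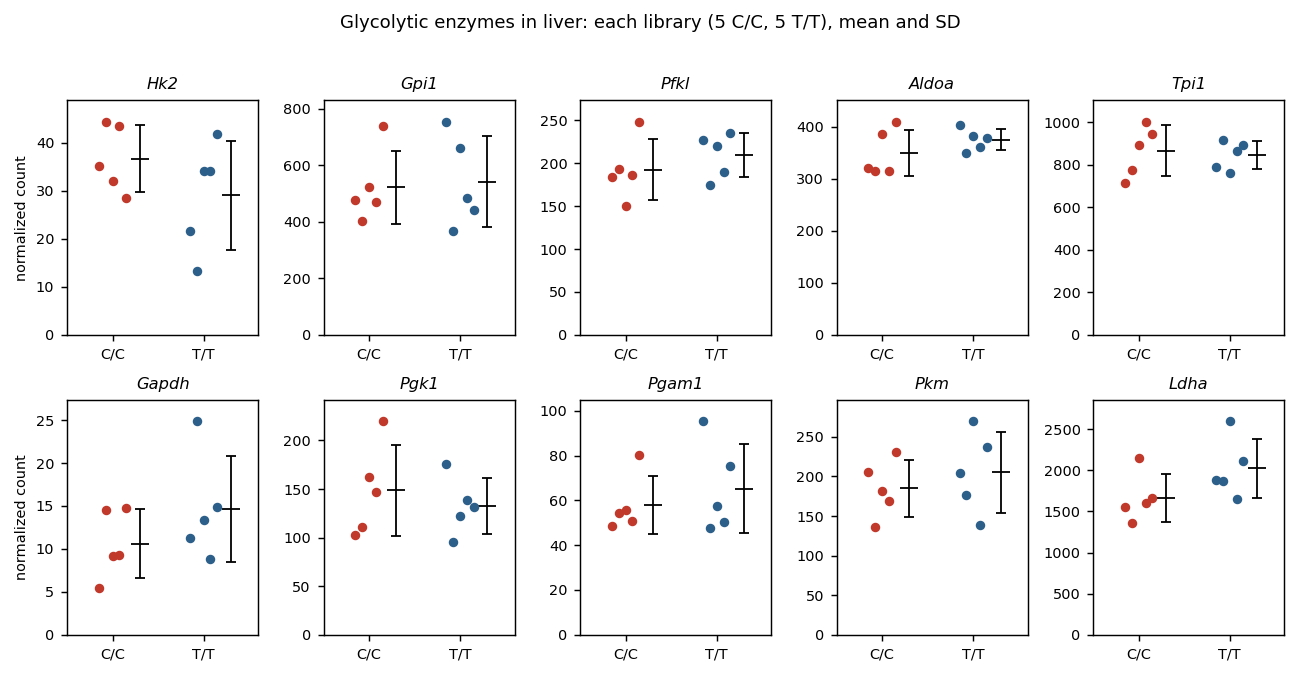
Normalized counts of the same 10 enzymes in liver, 1 panel per gene with a linear axis from 0, C/C in red and T/T in blue. Each point is a library, and the black marks give the mean and SD of 5 C/C and 5 T/T libraries. The points of the genotypes overlap in every panel, for *Tpi1* between 715 and 1004 in C/C and between 759.6 and 917 in T/T.

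The difference between the genotypes was then compared between the tissues by fitting the 19 libraries together, for the 10404 genes that passed the filter in each tissue. The genotype difference in WAT minus that in liver was -1.29 for *Tpi1* (SE 0.21, limma adjusted p = 0.000182), -1.28 for *Hk2* (SE 0.39, adjusted p = 0.0188) and 0.87 for *Pgam1* (SE 0.32, adjusted p = 0.0448). The other 7 members were not called, with values between -0.38 (*Pfkl*) and 0.67 (*Gapdh*). Of all genes, 29.2% were called in this comparison, close to the 3 of 10 members. With the mouse as a replicate block, since 6 mice gave both tissues, 2 of the 3 were called and *Pgam1* was not (0.86, limma adjusted p = 0.0549). In the 6 mice with both tissues, again with the block, *Tpi1* alone was called.

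**Figure D3:**
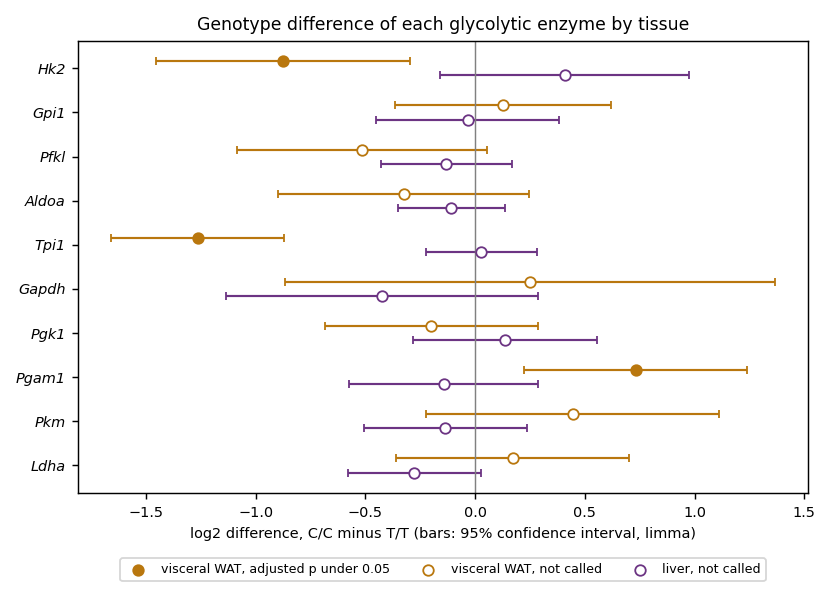
Log2 difference, C/C minus T/T, of each of the 10 enzymes in visceral WAT (orange) and liver (purple) on the horizontal axis, with 95% confidence intervals from limma and filled points for an adjusted p under 0.05. *Tpi1* (-1.26) and *Hk2* (-0.87) lie to the left and *Pgam1* (0.73) to the right in WAT, and every liver interval includes 0.

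Levels in the tissues are given side by side as RPM, with no test, since the tables were normalized separately. In these units 7 members were higher in every WAT library than in every liver library, *Tpi1* and *Pgk1* were lower in every WAT library, and *Gapdh* overlapped. The share of all genes that lay apart between the tissues was not computed, so these counts describe the members only. *Aldoa* had a mean of 1572 RPM in WAT (880.58 to 2372) and 53.6 in liver (45.1 to 59.0), a ratio of 29.3. *Hk2* had 134 in WAT (63.3 to 235) and 4.88 in liver (2.06 to 6.78), a ratio of 27.4. The muscle-type pyruvate kinase *Pkm* had 488 and 28.9, a ratio of 16.9. The liver has other isoenzymes at the steps of *Aldoa*, *Hk2* and *Pkm*, and whether they have a part in these gaps was not tested. *Pfkl*, although the liver-type subunit, was also higher in WAT (5.49 times). *Pgam1* (3.67), *Ldha* (3.55) and *Gpi1* (3.25) had narrower gaps. *Tpi1* had 55.0 RPM in WAT and 126.9 in liver, 2.31 times as much in liver, and *Pgk1* 9.03 and 20.7, 2.29 times. The C/C WAT libraries made up the lower end of the *Tpi1* values in WAT.

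**Figure D4:**
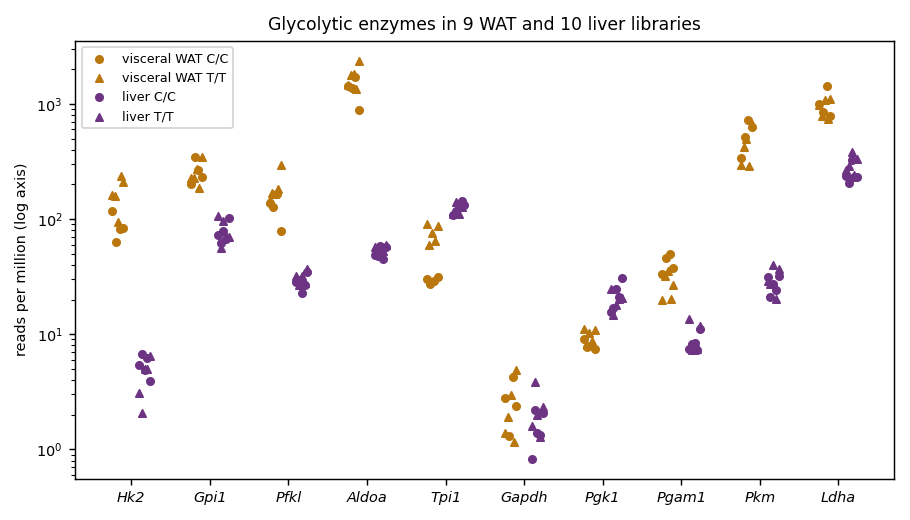
RPM (log axis) of the 10 enzymes in the 9 WAT libraries (orange) and 10 liver libraries (purple), circles for C/C and triangles for T/T, each point a library. *Aldoa* and *Hk2* lie furthest apart between the tissues, *Tpi1* and *Pgk1* are higher in liver, and for *Tpi1* in WAT the circles lie below the triangles.

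How the members varied with each other across libraries of a tissue was described with the genotype difference taken out. After the genotype means were subtracted from the log2 values, the 45 pairs of members had a median Pearson r of 0.52 over the 9 WAT libraries, from -0.47 (*Hk2* and *Pgam1*) to 0.90 (*Pfkl* and *Aldoa*), and 41 pairs were above 0. The median over all pairs of the 12798 genes tested in WAT was -0.00094. *Tpi1* and *Pgk1* had an r of 0.88, whereas *Hk2* was below 0 with *Gpi1* (-0.36), *Pkm* (-0.17), *Ldha* (-0.02) and *Pgam1*. In liver the median over the 45 pairs was 0.19 over 10 libraries, and the highest was 0.83 (*Aldoa* and *Pgk1*). These values are descriptions, since the points share their libraries, their size factors and their mixture of cells. The genes whose pattern in WAT was most like that of *Tpi1* by this measure were *Ppih* (r = 0.94), *Plekhg3* (0.93), *Gsto1* (0.93), *Apoc1* (0.93) and *Ube2g2* (0.93). For *Ldha* in liver they were *Eif3b* (0.94), *Ift27* (0.94), *Qrich1* (0.92), *Rab12* (0.91) and *Ccdc130* (0.91).

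Other isoenzymes of the same steps were described in WAT from a list of 17, of which 12 were tested and 1 was called, against 32.1% of all genes. *Pfkm*, the muscle-type phosphofructokinase, was higher in C/C, with 186 ± 57.0 (SD, n = 4) normalized counts against 71.9 ± 6.23 (SD, n = 5), a log2 difference of 1.31 (SE 0.22, limma adjusted p = 0.00138). The ratio of *Pfkl* to *Pfkm* reads within a library needs no size factor. It was 5.61, 2.50, 5.26 and 1.56 in C/C mice 590, 593, 599 and 638, and 7.86, 10.4, 10.3, 12.6 and 20.4 in T/T mice 607, 608, 609, 657 and 658. Every C/C ratio lay below every T/T ratio, as it did for *Pfkl* to the platelet-type *Pfkp* (0.487 to 0.87 in C/C and 0.999 to 2.71 in T/T). The ratio of *Hk2* to *Hk1* was 3.27 ± 1.62 (SD, n = 4) in C/C and 8.17 ± 3.02 (SD, n = 5) in T/T, and overlapped. That of *Ldha* to *Ldhb* was alike in the genotypes, with 25.9 ± 13.1 (SD, n = 4) in C/C and 24.5 ± 5.72 (SD, n = 5) in T/T, and overlapped. In liver, *Pfkl* to *Pfkm* was 5.39 ± 0.797 (SD, n = 5) in C/C and 6.75 ± 2.52 (SD, n = 5) in T/T and overlapped too. The pairs were chosen after the values of these genes had been seen, and no test was made of them. The share of other gene pairs whose ratios lie apart in this way was not computed.

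Genes around glycolysis were described from lists of 89 genes of glucose use, of which 79 were tested in WAT. There 15 were called lower and 8 higher, together 23 of 79, again near the 32.1% of all genes, with a median log2 difference of -0.14. Of the pentose phosphate pathway, which branches off at the product of *Hk2* and makes NADPH, 5 of 8 genes were lower (*Rpe*, *G6pdx*, *Taldo1*, *H6pd* and *Pgd*) and 2 higher (*Pgls* and *Rpia*), and the median was -1.11. *G6pdx*, which opens that branch, had 235 ± 110.02 (SD, n = 4) normalized counts in C/C and 666 ± 183 (SD, n = 5) in T/T WAT, a log2 difference of -1.59 (SE 0.32, limma adjusted p = 0.00336). *Rpe*, an epimerase of its later part, fell from 116 ± 16.9 (SD, n = 5) in T/T to 24.9 ± 10.7 (SD, n = 4) in C/C, a log2 difference of -2.26 (SE 0.28, adjusted p = 0.000508). *Pgls*, which acts between G6PDX and PGD, went the other way with 1.33 (SE 0.21, adjusted p = 0.00121), so the genes of the branch did not share a direction.

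Of 10 regulators of glycolysis tested in WAT, 3 were lower and 1 higher, beside 17.0% and 15.1% of all genes tested. *Pfkfb1* (-1.55) and *Pfkfb4* (-1.75), which make and remove the fructose 2,6-bisphosphate that activates phosphofructokinase, and *Mlxip* (-1.54), a glucose-sensing transcription factor, were lower, with limma adjusted p-values of 0.00164, 0.0033 and 0.00439. *Hif1a*, the hypoxia-inducible factor subunit, was higher by 0.87 (adjusted p = 0.0148). Members with ACGTG in their promoter windows were found on either side of 0 in WAT, from *Hk2* to *Pgam1*. A part of *Hif1a* in the levels of the members was not tested.

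The WAT counts of the next lists stand beside 17.0% of all genes tested called lower and 15.1% called higher. Of 8 transporter genes, *Bsg*, the chaperone of the lactate transporters, was lower (-0.87, limma adjusted p = 0.00771) and *Slc16a1*, a lactate transporter, was higher (0.61, adjusted p = 0.0368). The insulin-responsive glucose transporter *Slc2a4* had 1039 ± 345 (SD, n = 4) in C/C and 1358 ± 162 (SD, n = 5) in T/T and was not called. Among 14 genes for the entry of pyruvate into mitochondria, *Pdhb* (-1.63), *Mpc2* (-1.84) and *Dlat* (-0.81) were lower and *Pdk2* (1.13), a kinase that switches pyruvate dehydrogenase off, was higher. Of 17 genes of glycogen metabolism, *Gys2*, *Ugp2* and *Ppp1r3b* were lower and *Gys1* and *Phkb* higher. None of 10 genes of the NADH shuttles and glycerol 3-phosphate was called, where *Got1* had the lowest p (-1.38, adjusted p = 0.0591) and 3 had an unadjusted p under 0.05. In liver, 0 of 75 genes of these lists were called by limma, edgeR or DESeq2, and 2 had an unadjusted limma p under 0.05 (*Eno3* and *Pfkfb3*).

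**Figure D5:**
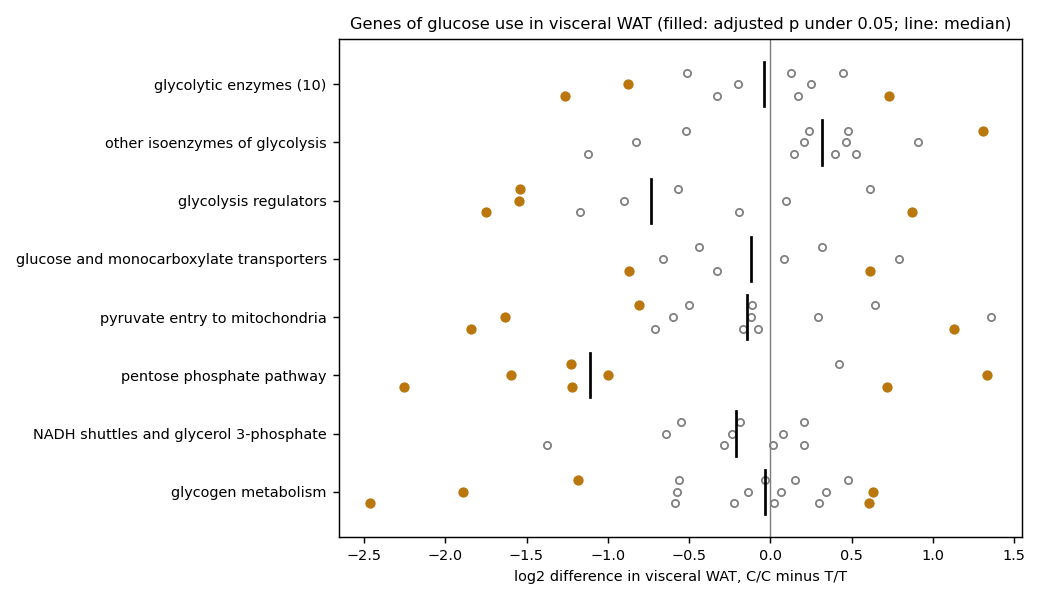
Log2 difference, C/C minus T/T, in visceral WAT of the 10 glycolytic enzymes and of 79 other genes of glucose use, 1 row per list and 1 point per gene, with filled points for a limma adjusted p under 0.05 and a black line at the median of each list. The median is -0.04 for the enzymes and -1.11 for the pentose phosphate pathway, and called genes lie on both sides of 0 in every list that has more than 1.

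Several members serve as reference genes, so other reference genes were set beside them. Of 14 tested in WAT, 5 were lower in C/C (*B2m*, *Hprt*, *Ppia*, *Rplp0* and *Polr2a*) and 1 was higher (*Ywhaz*), beside 17.0% and 15.1% of all genes tested. *Actb* had 44606 ± 5287 (SD, n = 4) normalized counts in C/C and 30978 ± 8387 (SD, n = 5) in T/T WAT, a log2 difference of 0.56 (limma adjusted p = 0.116). The ratio of *Tpi1* to *Aldoa* reads within a library was 0.0234 ± 0.00829 (SD, n = 4) in C/C and 0.0442 ± 0.011 (SD, n = 5) in T/T WAT, and its ranges overlapped.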

How the data were processed

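RNA of livers (250 ng) and visceral WAT (500 ng) was sequenced with a stranded 3′ end kit. The labels list 76 run samples, 4 per mouse, and groups were set from genotype and mouse number in the labels. The authors deposited 1 table per tissue whose signal values are read counts divided by 1 size factor per library; the submitters' processing notes name FastQC 0.11.9, HISAT2, SAMtools 1.12, HTSeq, DESeq2 and GRCm39, with no roles. 1 WAT column without a label was not used. Whole reads were recovered for 100% of values (tolerance 1e-06) for the alternatives. No molecular identifiers are mentioned, so counts are reads, and p-values measure the spread between mice.

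A separate limma model (version 3.58.1, R 4.3.3) was made per tissue on log2(value + 1), with genotype as the only term, for genes with a mean of at least 10, with trend and robust options and Benjamini-Hochberg adjustment over all genes tested (called under 0.05). A fold change on this scale is understated for low genes. The fit was tried on simulated data with far fewer changed genes than were called in WAT, so that check does not cover the WAT setting. Alternatives were pseudocounts of 0.5 and 10, no filter or a minimum mean of 50, quantile normalization, the same total, library weights, a term for mouse number range, edgeR 4.0.16, DESeq2 1.42.0, each mouse left out, and a mouse block between tissues. The alternatives with only mice under 610, and without mice 593 and 609, were chosen after seeing the data, as were the isoenzyme ratios. Shared stretches of 50 bases were counted in GENCODE vM21 transcripts (GRCm38, not the build of the counts), and promoter windows came from RefSeq.

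The members and gene lists were chosen with earlier results of these data known. Named beside the members were genes called in each list or among its 3 lowest p-values (not all of these are reported), *Actb* and called reference genes, and the 5 genes most like the member with the lowest p per tissue. *Hk1*, *Ldhb*, *Slc2a4*, *Spsb2*, *Fnip2* and the cell type markers were added outside that rule. 1 reference gene is not reported here.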

Additional observations from a re-analysis of the deposited data

Results flagged for a closer look

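The interaction contrast in limma called 3 of the 10 enzymes as differing between visceral WAT and liver in their genotype difference. Of all 10404 genes tested, 29.2% were called, close to the share of members. The difference in WAT minus that in liver was -1.28 for *Hk2* (adjusted p = 0.0188), -1.29 for *Tpi1* (adjusted p = 0.000182) and 0.87 for *Pgam1* (adjusted p = 0.0448), on the log2 scale. With the mouse as a replicate block, *Pgam1* was not called (0.86, limma adjusted p = 0.0549), and it was called in 7 of 18 alternatives.

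In liver, *Pgam1* had 80.3 normalized counts in C/C mouse 639, far from the other 4 C/C livers (48.7 to 55.6). On the log2(value + 1) scale the gap was 0.736 of the group's range. About 1 in 20 groups is marked in this way by chance, and of 40 groups examined 1 was marked.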

How the results depend on the processing

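In WAT, 3 members were called under each alternative on all 9 libraries, and 1 to 3 when each mouse was left out in turn. *Tpi1* was called under all of them, *Hk2* lay between -1.06 and -0.69 and *Pgam1* between 0.60 and 0.86 without each mouse. Only mice under 610 gave 1 member and 7 of the 79 other genes of glucose use, with fewer libraries in the fit. Between the tissues, 1 to 3 members were called without each mouse. The replicate block gave 2 members, and 1 in the mice with both tissues (6 mice, fewer libraries), where *Pgk1* came out at 0.016. The consensus correlation within a mouse was -0.114 in the paired fit of all mice and -0.0992 in that of the mice with both tissues.

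Values of members that were not called changed sign, and the cause was not tested. Quantile normalization gave -0.043 for *Gpi1* and -0.044 for *Ldha* in WAT and -0.0082 for *Tpi1* in liver. Library weights gave 0.033 for *Gpi1* in liver. Only mice under 610 gave -0.11 for *Tpi1* and -0.075 for *Pgk1* in liver. Without each mouse in turn, *Ldha* in WAT lay between -0.0053 and 0.29, *Gpi1* in liver between -0.17 and 0.097, *Tpi1* in liver between -0.027 and 0.095, *Pgk1* in liver between -0.018 and 0.25, *Pgam1* in liver between -0.27 and 0.0038, and *Gpi1* between the tissues between -0.043 and 0.33. In liver no member was called under any alternative. Scaling to the same total moved the share of called WAT genes that were higher in C/C from 46.9% to 39.1%, and the median of all genes from 0.02 to -0.06. *Hk2* in liver rests on 14 to 49 reads per library.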
